A study of Mus musculus with 6 samples.

Results

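Immediate early genes are transcribed within minutes of a stimulus without new protein synthesis, and 10 of them were followed here in retinal ganglion cells, which carry visual signals from the eye to the brain: Fos, Fosb, Jun, Junb, Jund, Egr1, Atf3, Ier2, Dusp1 and Btg2. They were chosen by name, as genes that respond to cell isolation and to neuronal activity, and all 10 were found among the 22413 genes of the count table. Bulk RNA was sequenced from adult mice. Every animal, the controls included, had both alleles of Tgfbr1 floxed, a gene for a TGF-beta receptor. The knockout group (genotype Tgfbr1flx/flx;Vglut2Cre/+) has 3 libraries and carries Cre at the vesicular glutamate transporter 2 locus, so that Cre is made where that transporter is expressed. The control group (Tgfbr1flx/flx;Vglut2+/+) has 3 libraries and no Cre. The labels name no treatment and do not say whether a sample was 1 animal or a pool, so every p-value measures the spread between these samples only, which may be technical.

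The AP-1 transcription factor is a dimer of a Fos protein with a Jun protein, or of Jun proteins with each other or with ATF proteins. Kinases of the ERK, JNK and p38 pathways and calcium signals switch these genes on through factors such as SRF and CREB, and the products feed back, as Dusp1 does by dephosphorylating the same kinases. Enzymatic dissociation and sorting of tissue are known to induce many of them, and Jun and Atf3 are also known to be induced in ganglion cells after injury of the axon. How the ganglion cells were isolated, and how long that took, is not given in the sources used here, so induction during isolation and expression in the eye cannot be told apart.

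All the members have few exons and most have a short span, traits that their selection did not use. In the GENCODE M21 annotation of mm10, all 10 had at most 4 exons in the transcript chosen for each gene, its longest protein-coding one with a 3′ UTR, which 19.7% of the 5410 tested protein-coding genes had, and 6 of 10 spanned under 5000 bases against 10.9%. The medians were 2 exons and a span of 4093 bases for the members, and 9 exons and 27422 bases for the tested genes. Atf3 and Dusp1 went the other way in this annotation, with spans of 47744 and 56539 bases, above the median of the tested genes. Both spans begin before the RefSeq start site used below, from which each gene would be shorter. Their place in this comparison therefore depends on the gene model. Jun, Junb, Jund and Ier2 had a single exon. Their 3′ UTRs were searched on the transcript strand for TATTTAT, a core of the AU-rich elements by which short-lived mRNAs are marked for decay. It stood in 7 of the 10 members and in 34.1% of the tested genes. Dusp1 held 3 copies and Fos 2. A site each from Fos, Jun, Dusp1 and Btg2 is shown in 30 bases with the searched letters in capitals, since these genes share the element and had counts in every library but differed in pattern between libraries.
Fos 3′ UTR bases 663 to 692: taagatggattctcagaTATTTATattttt
Jun 3′ UTR bases 1160 to 1189: ttgcttgtgcaTATTTATaatagcgttcgt
Dusp1 3′ UTR bases 382 to 411: gtttttaccttTATTTATttttgtgtaggt
Btg2 3′ UTR bases 92 to 121: aaatgaagagcTATTTATacatgttttttt
A match describes the letters and does not show that the element acts.

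RefSeq promoters (GRCm38.p6) were found for 8 of the 10 genes, and the 250 bases before the RefSeq start site were searched on both strands. For Dusp1, Atf3 and Jund that start site lies away from the end of the GENCODE span given below. The cAMP response element TGACGTCA, bound by CREB and ATF proteins, was in the promoters of Dusp1 and Btg2, 2 of 8, against 1.55% of 32851 promoters. Its shorter core TGACG, which the full element contains on both strands, was in 6 of 8 (Fos, Fosb, Junb, Atf3, Dusp1 and Btg2) against 17.8%. The variant TGACATCA, known from the Jun promoter, was in Jun and in 2.93% of all promoters. Neither TGANTCA, the AP-1 site (6.75% of promoters), nor the CArG box of SRF (1.47%) was in any of these 8 windows, which says only that these letters are not there. Bases further upstream, and the promoters of Egr1 and Ier2, were not searched. The promoters of Dusp1, Btg2, Fos and Jun are shown, 5′ to 3′ on the gene's strand with the matches in capitals, Dusp1 and Btg2 because they share the full element and differed in how steady their level was, and Fos and Jun because their levels stood at opposite ends in the same control libraries.
Dusp1 chr17:26508473-26508722 minus strand: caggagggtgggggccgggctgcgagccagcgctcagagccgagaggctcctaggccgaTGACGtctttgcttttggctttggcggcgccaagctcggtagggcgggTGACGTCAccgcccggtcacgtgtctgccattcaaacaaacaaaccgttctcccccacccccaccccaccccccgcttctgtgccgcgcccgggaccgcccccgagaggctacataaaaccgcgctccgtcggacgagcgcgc
Btg2 chr1:134079156-134079405 minus strand: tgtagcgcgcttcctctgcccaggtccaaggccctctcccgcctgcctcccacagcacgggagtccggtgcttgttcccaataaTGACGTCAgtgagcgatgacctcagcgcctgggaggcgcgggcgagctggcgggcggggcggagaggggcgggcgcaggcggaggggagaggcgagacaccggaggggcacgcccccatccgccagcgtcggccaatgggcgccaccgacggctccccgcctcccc
Fos chr12:85473640-85473889 plus strand: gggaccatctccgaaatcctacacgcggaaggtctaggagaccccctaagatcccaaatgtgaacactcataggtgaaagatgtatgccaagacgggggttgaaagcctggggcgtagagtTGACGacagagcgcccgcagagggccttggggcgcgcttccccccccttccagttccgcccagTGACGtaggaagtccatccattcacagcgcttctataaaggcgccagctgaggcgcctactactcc
Jun chr4:95052223-95052472 minus strand: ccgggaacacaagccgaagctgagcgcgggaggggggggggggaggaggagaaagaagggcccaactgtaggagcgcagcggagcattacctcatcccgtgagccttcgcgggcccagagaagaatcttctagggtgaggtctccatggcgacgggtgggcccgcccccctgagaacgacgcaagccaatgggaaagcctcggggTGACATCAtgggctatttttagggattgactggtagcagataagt
Counted from the start site, the full element lies at -143 to -136 in Dusp1 and at -166 to -159 in Btg2. In Fos the shorter core lies at -66 to -62 and at -129 to -125, and in Jun the variant lies at -45 to -38.

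Library totals ranged from 7486359 to 21126291 counts, and 4258 to 4863 genes reached 10 counts in the controls and 5790 to 7209 in the knockouts. For Tgfbr1, controls 1, 2 and 3 gave 1, 0 and 1538 counts, and knockouts 1, 2 and 3 gave 46, 0 and 793. These are counts over the whole gene, which do not separate the floxed part and so check no label. Ganglion cell markers summed to 1132 to 5869 CPM (counts scaled to a common library total) in the controls and 3507 to 5733 in the knockouts, and rod and cone markers to at most 12.96 CPM. The defining markers were uneven, with Slc17a6, the gene of the transporter, at 0 counts in control 3 and Rbpms at 1 count in knockout 1. Control 3 stood apart by its endothelial markers: it had all 12 of them, with a sum of 8131 CPM, against 36.1 to 796 CPM in the rest. It also had the lowest sum of ganglion cell markers and the highest of Müller glia and astrocyte markers, 6599 CPM against 874 to 2641. Control 2 had the highest sum of bipolar markers, a list that shares Isl1 with the ganglion cells, 802 CPM against 0.305 to 180. Sums were highest in knockout 2 for amacrine and horizontal markers (1559 CPM) and in knockout 3 for pericyte and smooth muscle markers (574 CPM, with 546 in control 2). Microglia and macrophage markers summed to 461, 264 and 1.11 CPM in knockouts 1, 2 and 3 and to 2.41, 46.4 and 134 CPM in controls 1, 2 and 3. The part of such cells in the levels below was not tested. In bulk samples, fewer cells of a type and less RNA per cell cannot be told apart.

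None of these immediate early genes that could be tested differed between knockout and control beyond the spread of the libraries. Of the 10 genes, 9 passed the low-count filter and Fosb did not. With edgeR's quasi-likelihood test, 0 of these 9 had a Benjamini-Hochberg adjusted p under 0.05, as for all 5727 genes tested (0.0%), and 0 of 9 had an unadjusted p under 0.05, against 281 of all tested genes (4.91%; 4.44% higher and 0.471% lower in the knockout). The 9 estimates split into 5 above and 4 below 0, with a median log2 fold change of 0.03, and 52.3% of all tested genes were above 0, with a median of 0.08. Every member's log2 fold change was smaller than its standard error, and these errors ran from 1.86 to 3.28, so changes of several fold could not be resolved. DESeq2 called 885 genes (15.0% of those with an adjusted p) and limma voom 85 (1.48% of those tested), with 0 of these members in either. DESeq2 gave no p for Ier2.

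**Figure D1:**
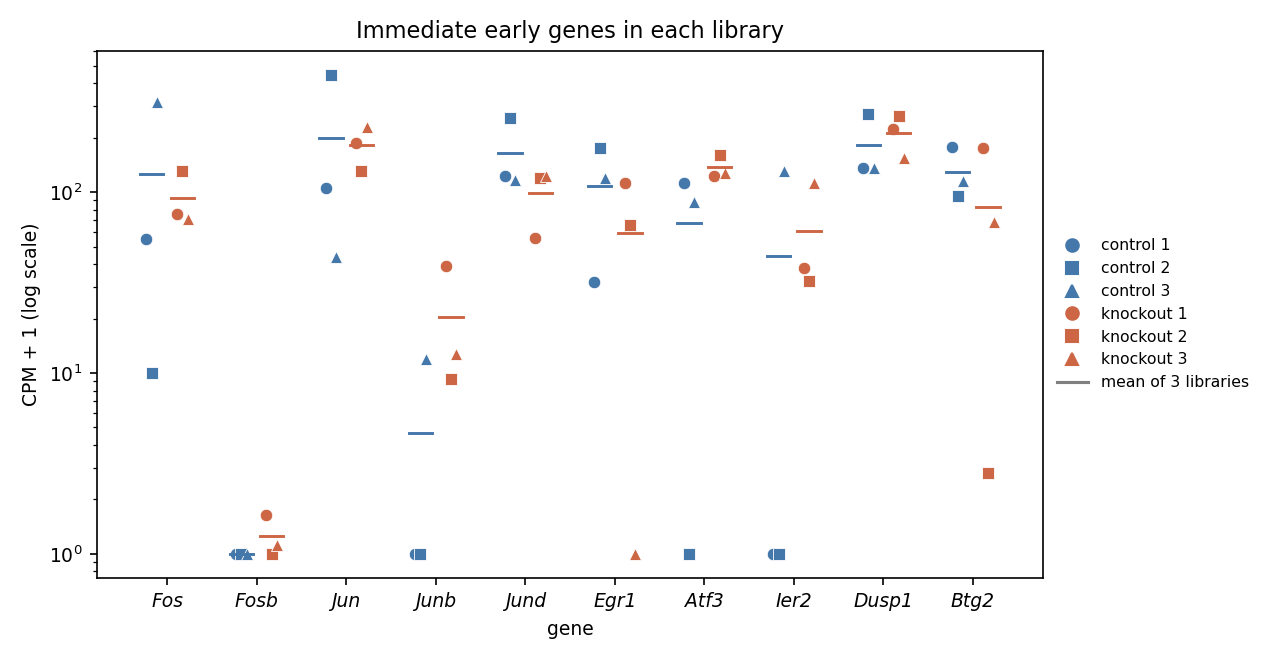
Level of each of the 10 genes in each library, as CPM + 1 on a log scale (points: blue controls, orange knockouts, the symbol gives the replicate number; lines: mean of 3 libraries). The genotypes overlap for every gene except Atf3, and Ier2 and Junb sit at 0 counts in controls 1 and 2.

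Fos, the inducible subunit that gives AP-1 its strongest activity, had the widest range among the controls of the members detected in every library. The gene spans 85473890 to 85477273 of chromosome 12 on the plus strand (mm10, GENCODE M21, as for all genes here). It stood at 54.4, 8.95 and 314 CPM in controls 1, 2 and 3 and at 74.5, 129 and 70.1 CPM in knockouts 1, 2 and 3. Control 3 was the highest of the 6 libraries and control 2 the lowest, and the knockouts lay between them. The group means were 126 ± 165 CPM (SD, n = 3) in the control and 91.4 ± 33.1 in the knockout, a log2 fold change of -0.45 ± 2.67 (SE; edgeR adjusted p = 0.9996). Control 3 held 83.2% of the summed control CPM, and without that library the log2 fold change was 1.41. The endothelial and glial marker sums were also highest in control 3, and their part in the Fos level was not tested. Counting error was small beside these differences: the 67 counts of control 2 gave an exact Poisson 95% interval of 6.94 to 11.4 CPM. Without molecular identifiers, reads are not separate molecules, and such intervals take in no error but that of counting.

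Fosb, its close relative, was at the limit of detection. The gene spans 19302696 to 19310051 of chromosome 7 on the minus strand. It had 9 counts in knockout 1, 1 in knockout 3 and 0 in the other 4 libraries. A count of 0 allows up to 3 counts, which is 0.142 CPM in knockout 2 and 0.183 to 0.401 CPM in the controls. Against that floor over the control group the 10 knockout counts make a level at least 2.74-fold higher, with 9 of the counts in 1 library. This bound and the others given below pool the libraries of each group. They allow for counting error in the 0 counts only, not for the spread between libraries.

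Jun, the subunit that can also pair with itself and the target of JNK, went the other way from Fos within the controls. The gene spans 95049034 to 95052222 of chromosome 4 on the minus strand. It was at 104, 445 and 43.0 CPM in controls 1, 2 and 3 and at 186, 130 and 229 CPM in knockouts 1, 2 and 3. The highest library was control 2, where Fos was lowest, and the lowest was control 3, where Fos was highest. For each count of Jun, controls 1, 2 and 3 held 0.522, 0.0201 and 7.30 counts of Fos. In knockouts 1, 2 and 3 these ratios were closer together, at 0.400, 0.998 and 0.307. The log2 fold change of Jun was 0.03 ± 2.01 (197 ± 217 CPM in the control and 181 ± 49.6 in the knockout, edgeR adjusted p = 0.9996), and its sign turned with DESeq2's size factors (-0.16), library totals (-0.12) and upper-quartile scaling (-0.0070). It was 1.20 without control 2. Junos, a gene on the opposite strand, shares 232 exonic bases with Jun and had at most 22 counts in any library. Since the strand setting is not given in the sources used here, reads of such pairs cannot be told apart.

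Junb, a Jun protein that is a weaker activator than Jun and can restrain it, was the lowest of the 9 tested genes. The gene spans 84974484 to 84978718 of chromosome 8 on the minus strand. Its level was 38.0, 8.28 and 11.7 CPM in knockouts 1, 2 and 3 and 11.0 CPM in control 3, with 0 counts in controls 1 and 2. The genotypes overlapped, since control 3 lay above knockout 2. With a log2 fold change of 2.52 ± 3.18 it had the smallest p of the members (edgeR unadjusted p = 0.437, adjusted p = 0.9996), and all of its control CPM came from control 3. Without that library the fitted value was 11.02, which depends on how 0 counts are treated. Against a floor of 3 counts over controls 1 and 2, the pooled knockouts were at least 118-fold higher by counting error alone. That bound takes in no spread between libraries, and control 3, left out there, lay within the knockout range. Junb shares 173 exonic bases with Prdx2 on the opposite strand, which had 2 to 6396 counts per library. Prdx2 had 1456 and 4399 counts in controls 1 and 2, where Junb had 0, and 2 in knockout 3, where Junb had 95. The part of this overlap in the Junb values was not tested.

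Jund, the Jun protein that is made in resting cells and is the least inducible, was detected in all libraries. The gene spans 70698949 to 70700616 of chromosome 8 on the plus strand, 1668 bases. Its RefSeq promoter window ended earlier, at 70697738. The deposited length-scaled values imply a length of 2877 bases, so the gene models differ. Jund was at 121, 255 and 116 CPM in controls 1, 2 and 3 and at 55.0, 119 and 121 CPM in the knockouts. Control 2 was the highest and knockout 1 the lowest, and the other 4 lay within 116 to 121 CPM. The means were 164 ± 78.7 and 98.2 ± 37.5 CPM, a log2 fold change of -0.68 ± 2.48 (edgeR adjusted p = 0.9996). The annotation puts the opposite-strand gene Gm11175 over 877 exonic bases of Jund, so these counts too rest on an unstated strand setting. Summed over Jun, Junb and Jund, the level was 170 to 700 CPM in the controls and 257 to 362 CPM in the knockouts.

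Egr1, a zinc finger factor switched on by ERK signalling and a common marker of neuronal activity, was missing from 1 knockout library. The gene spans 34859823 to 34864984 of chromosome 18 on the plus strand. It was at 30.8, 174 and 119 CPM in controls 1, 2 and 3 and at 111 and 65.0 CPM in knockouts 1 and 2, with 0 counts in knockout 3, which allows up to 0.370 CPM. The ranges overlapped. The log2 fold change was -0.65 ± 2.96 (108 ± 72.1 CPM in the control and 58.6 ± 55.7 in the knockout, edgeR adjusted p = 0.9996), and it was 0.0091 without knockout 3.

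Atf3, a stress-induced factor of the ATF/CREB family, was the only member whose genotypes did not overlap. The gene spans 191170296 to 191218039 of chromosome 1 on the minus strand, a stretch that takes in the RefSeq promoter window (191183334 to 191183583). It was at 122, 159 and 127 CPM in knockouts 1, 2 and 3 and at 111 and 87.6 CPM in controls 1 and 3, with 0 counts in control 2. The lowest knockout, 122 CPM, lay just above the highest control, 111 CPM. Among all tested genes 10.4% had every knockout above every control and 2.3% the reverse (12.7% in either direction), so 1 of 9 members is near that share. The log2 fold change was 0.97 ± 2.85 (knockout mean 136 ± 20.3 CPM, control mean 66.3 ± 58.6, edgeR adjusted p = 0.9996). It was 0.39 without control 2. The 3 knockouts differed from each other by 1.30-fold, the narrowest range of any member in that group.

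Ier2, a small nuclear protein induced by growth factors, followed the same detection pattern as Junb. The gene spans 84661331 to 84662852 of chromosome 8 on the minus strand. It had 2118 counts in control 3 and 515, 665 and 901 in knockouts 1, 2 and 3, and 0 in controls 1 and 2. As CPM it was highest in control 3 (129) and knockout 3 (111), and at 37.0 and 31.5 in knockouts 1 and 2, so the group with both empty libraries also held the highest one. The means were 43.1 ± 74.7 CPM in the control and 59.9 ± 44.6 in the knockout, a log2 fold change of 0.46 ± 3.28 (edgeR adjusted p = 0.9996). The fitted value was 12.50 without control 3, and turned to -0.11, -0.05 and -0.13 without control 1, control 2 and knockout 3. Without control 3, the pooled knockouts were at least 307-fold above the floor of 3 counts over controls 1 and 2, by counting error alone. Control 3, left out there, was the highest library. Over all genes, 308 were detected in exactly these 4 libraries. That is 20.5% of the 1504 detected in 4, and 2.57% of the 11977 detected in any library.

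Dusp1, the phosphatase that switches off p38, JNK and ERK, was the steadiest member. The gene spans 26505590 to 26562128 of chromosome 17 on the minus strand, a stretch that takes in the RefSeq promoter shown above, so the annotations differ in the start site. It was at 135, 270 and 136 CPM in controls 1, 2 and 3 and at 222, 262 and 153 CPM in the knockouts. The highest library was 1.998-fold above the lowest, and 2.51% of the 1196 genes with 10 counts in all libraries had a range this narrow or narrower. The means were 180 ± 77.8 and 213 ± 55.0 CPM, a log2 fold change of 0.34 ± 1.86 (edgeR adjusted p = 0.9996).

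Btg2, an antiproliferative protein that binds the CCR4-NOT deadenylase, was nearly absent from 1 library. The gene spans 134075170 to 134079120 of chromosome 1 on the minus strand. It stood at 177, 93.8 and 114 CPM in controls 1, 2 and 3 and at 175, 1.80 and 67.8 CPM in knockouts 1, 2 and 3. Knockout 2, the deepest library, held only 38 counts (exact Poisson 95% interval 1.27 to 2.47 CPM) where knockout 1 held 2437. The range within the knockouts was 97.2-fold, and 1.00% of the 1196 genes with 10 counts in all libraries had one as wide. The log2 fold change was -0.57 ± 2.69 (128 ± 43.6 CPM in the control and 81.5 ± 87.3 in the knockout, edgeR adjusted p = 0.9996), and 0.10 without knockout 2. Dusp1, with the same letters in its promoter window, was at 262 CPM in that library, close to its highest. Whether the element acts in either gene was not tested.

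**Figure D2:**
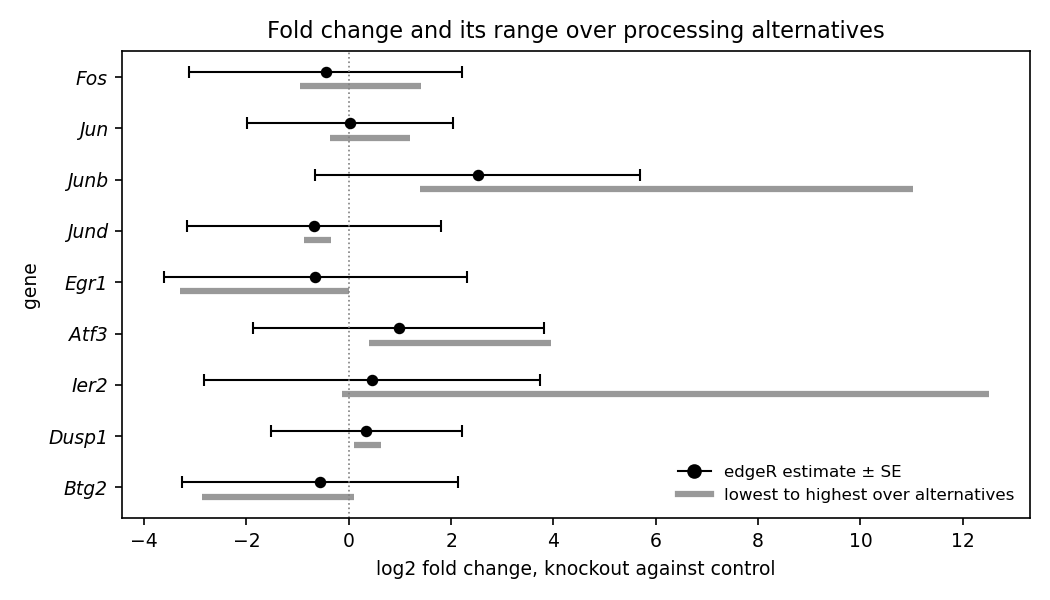
Log2 fold change of the 9 tested genes, knockout against control (points: edgeR estimate, bars: ± SE), with the lowest and highest value over the processing alternatives (grey bars). Every estimate ± SE includes 0, and the grey bars of Ier2 and Junb reach 12.50 and 11.02, where control 3 is left out.

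The summed level of the 10 genes overlapped between the genotypes. Their sum was 734, 1247 and 1070 CPM in controls 1, 2 and 3 and 1021, 906 and 891 CPM in knockouts 1, 2 and 3, or 1017 ± 260 and 939 ± 71.0 CPM (n = 3). All 3 knockouts lay within the range of the controls, and the ratio of the means, knockout over control, was 0.924. The highest library was 1.70-fold above the lowest. The make-up of the sum differed between libraries: Jun gave 35.7% of it in control 2 and 4.02% in control 3, Fos 0.718% and 29.4%, and Btg2 24.2% in control 1 and 0.199% in knockout 2.

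**Figure D3:**
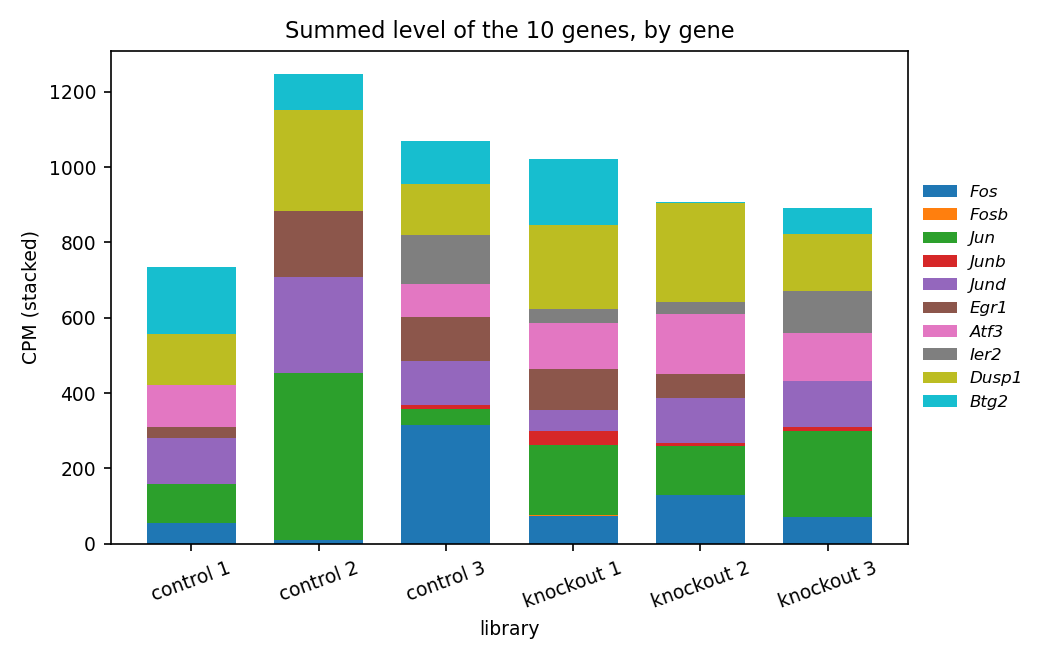
Summed CPM of the 10 genes in each library, stacked by gene. The sums lie between 734 and 1247 CPM, while Fos fills a large part of the bar in control 3 and Jun in control 2.

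Levels of different genes were compared per length, as FPKM (fragments scaled to gene length and library size) from the deposited table. Over the 6 libraries the mean was 101 FPKM for Dusp1, 59.4 for Jun, 51.5 for Fos, 51.2 for Atf3, 45.6 for Jund, 34.0 for Btg2, 33.8 for Ier2, 27.1 for Egr1, 6.25 for Junb and 0.0340 for Fosb. Dusp1 was the highest member in control 1 and in all 3 knockouts, Jun in control 2 and Fos in control 3. Neighbours in this order did not separate: Dusp1 ranged from 69.6 to 139 FPKM and Jun from 13.5 to 140, and each further gene overlapped the next in the same way.

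Loss of a gene from single libraries was frequent in the table as a whole. Among the 9 tested members 5 (Fos, Jun, Jund, Dusp1 and Btg2) reached 10 counts in all 6 libraries, and 4 were at 0 in at least 1. Of the 6572 genes whose mean lay between those of the lowest and the highest tested member, 11.5 and 196 CPM, 7.20% reached 10 counts in all 6 and 84.6% were at 0 in at least 1. Those genes were taken from the whole table without the low-count filter that the 9 members had passed. The shares are therefore not like for like, and the members cannot be called better retained. Controls 1, 2 and 3 had 7, 6 and 9 of the members detected, and knockouts 1, 2 and 3 had 9, 9 and 8. Control 3 thus matched the knockouts in members detected, while over the whole table each knockout library had more genes detected than any control. Of the 5 members present throughout, Fos, Jun and Dusp1 had the wider range in the controls, Jund and Btg2 in the knockouts, and 63.0% of the 1196 genes were wider in the controls.

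Among the 5 members present in every library, Jun, Jund and Dusp1 were more alike in profile than any of them was to Fos or Btg2. Likeness was taken as the root mean square difference between centred log2(CPM + 1) values over the 6 libraries, among those 1196 genes. It is a description and is not scaled for spread. Genes with a wide range, such as Fos and Btg2, therefore lie further from most others, and steady genes lie nearer to each other. Between members it was smallest for Jund and Dusp1 (0.69), then for Jun and Dusp1 (0.83), and it was 2.46 for Fos and Jun and 2.82 for Fos and Btg2. Ranked by likeness among all these genes, Dusp1 stood at place 118 from Jund and at place 104 from Jun, whereas Jun stood at place 982 from Fos. The genes nearest to Fos were Ro60 (0.59), Tpm3 and Wsb2, those nearest to Jun were Ncam1 (0.18), Atf4 and Rtn4, and those nearest to Jund were Gm15564 (0.15), Uchl1 and Grina. Dusp1 lay nearest to Sod1 (0.15), Vps29 and Cfl1, and Btg2 to Kidins220 (0.75), Dlgap4 and Srsf3.

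Other genes of the response, its kinases and its feedback were read from 6 further lists. Of 80 tested genes, 0 had an adjusted p under 0.05 with edgeR, and 2 an unadjusted p under 0.05 (2.5% against 4.91% of all tested genes), both higher in the knockout. Limma voom called 0 of the 80, and DESeq2 called 5 of the 75 for which it gave an adjusted p (Cebpd, Dusp4, Homer1, Mapk8 and Mrtfa, 4 of them higher in the knockout), where over all genes it called 15.0%. The edgeR log2 fold changes were above 0 for 44 and below 0 for 36. Dusp4, a nuclear ERK phosphatase, had 0 counts in all controls, and 161, 98 and 111 in knockouts 1, 2 and 3. Against a floor of 3 counts over the control group that is at least 101-fold higher (edgeR unadjusted p = 0.0113, adjusted p = 0.680, DESeq2 adjusted p = 0.0183), and at least 84.5-fold without knockout 1. Mrtfa, a coactivator of SRF, likewise had 0 counts in all controls, and 51, 823 and 113 in the knockouts, which is at least 270.4-fold higher (edgeR unadjusted p = 0.0156, adjusted p = 0.680, DESeq2 adjusted p = 0.0119). Most of these counts came from knockout 2, and without it the bound was 88.0-fold. The bounds for Dusp4 and Mrtfa take in no spread between libraries. The knockout libraries lay above all controls for 6 of the 80 (7.5%, against 10.4%) and below for 1 (1.25%, against 2.3%). The gene below was Mrtfb, a related SRF coactivator, with a mean of 269 ± 154 CPM among controls and 24.6 ± 24.7 among knockouts, and with a log2 fold change of -3.47 ± 2.54 (edgeR unadjusted p = 0.186).

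Among other immediate early transcription factors 11 of 21 in the table were tested, with 4 above and 7 below 0 and a median log2 fold change of -0.18. Nr4a1, a nuclear receptor induced with Fos, was nearly absent from the controls (0, 0 and 11 counts) and low in knockouts 1, 2 and 3 (34, 184 and 164 counts). Fosl2, a further Fos protein, gave 10674 counts in control 1 and 14343 in control 3 but 0 in control 2. The knockouts, at 184, 1600 and 30 counts, lay within that range. Bhlhe40 and Klf2 had 20888 and 13055 counts in control 3. The summed level of this list was 3988 CPM in control 3 and 604 to 2335 CPM in the other libraries. Immediate early effectors (17 tested, 10 above 0) summed to 5420 CPM in control 3 and 890 to 2298 CPM elsewhere, with 32628 counts of the kinase Plk2 and 13382 of the kinase Sgk1 in that library. Control 3 is the library with the high endothelial sum, and the part of those cells in these levels was not tested.

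Heat shock genes, which protein damage and dissociation at warm temperature induce, had 8 of 12 tested above 0 and a median log2 fold change of 0.65. Hsp90aa1, a cytosolic chaperone, had means of 1651 ± 925 CPM for the knockouts and 857 ± 609 for the controls (log2 fold change 0.91 ± 0.61, edgeR adjusted p = 0.9996), and Dnajb1 had 976 counts in knockout 2 and at most 72 in any other library. The list summed to 3354, 4837 and 7666 CPM in knockouts 1, 2 and 3 and 3518 to 4241 CPM in the controls, which overlap. Of the bZIP partners of AP-1, 6 of 12 were above 0, and Nfe2l2, the factor of the antioxidant response, showed the same gap in control 2, with 11230, 1 and 15555 counts across controls 1, 2 and 3 beside 242, 140 and 1880 across the knockouts. Upstream kinases and factors had 8 of 15 above 0, and Rps6ka3, a kinase below ERK, stood higher in every knockout (676, 578 and 893 counts) than in any control (0, 16 and 31 counts, edgeR unadjusted p = 0.140). Feedback phosphatases and factors of AU-rich mRNA decay had 9 of 14 above 0, and Spry2, an inhibitor of ERK signalling, was at 495 ± 67.5 CPM in the control and 204 ± 242 in the knockout (log2 fold change -1.24 ± 1.24).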

How the data were processed

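Per the labels' protocols, RNA came from the RNeasy Micro kit, and the VAHTS Universal V6 kit took 1 ng of it per library. The submitters' processing notes name mm10, fastp, HISAT2, HTSeq, DESeq2 and R 3.2.0 without stating roles. Raw counts and FPKM were deposited by the authors as tables with a column per library, with 0 columns of other samples.

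CPM here is the count over the library total. Genotypes were compared on counts by the quasi-likelihood F test of edgeR 4.0.16 (R 4.3.3), robust, with TMM scaling, genes kept by filterByExpr, and p-values adjusted by Benjamini-Hochberg over all genes tested, with a threshold of 0.05. SE is the log2 fold change over the root of F. DESeq2 1.42.0 and limma 3.58.1 were alternatives, and the scripts were tested on simulated data. The members and lists were chosen with earlier results of these data known. Besides the members, the rule named Tgfbr1, Slc17a6, the 4 tested genes of a list with the smallest p, and the 3 genes nearest in profile. Rbpms, Junos, Prdx2, Gm11175, Cebpd, Homer1 and Mapk8 were named after their values were seen. Detection means 10 counts.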

Additional observations from a re-analysis of the deposited data

How the results depend on the processing

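None of the 10 members was called under any alternative run (other scalings, filters, tools, FPKM settings, a replicate block, and each library left out in turn), and the smallest adjusted p of a member over these was 0.426, for Ier2 and Junb without control 3. Over the whole table DESeq2 called 885 genes and limma voom 85, and leaving out a library gave 0 to 7. The log2 fold change of Fos turned positive with limma voom (0.36), on log2(FPKM + 1) with and without a filter (0.63), on log2(FPKM + 0.1) (0.71) and with the replicate block (0.66). That of Jun turned negative with DESeq2's size factors in edgeR (-0.16), library totals (-0.12), upper-quartile scaling (-0.0070), genes with 10 counts in all 6 libraries (-0.12) and DESeq2 (-0.16). With a library left out the values ran from -0.95 to 1.41 for Fos, -0.37 to 1.20 for Jun, -1.60 to 0.0091 for Egr1, -0.13 to 12.50 for Ier2 and -1.98 to 0.10 for Btg2; Junb, Jund, Atf3 and Dusp1 kept their sign throughout. Values also moved without a change of sign: with limma voom Ier2 was at 6.41, Junb at 5.89, Atf3 at 3.95, Egr1 at -3.30 and Btg2 at -2.88, and with the replicate block Ier2 was at 9.21 and Junb at 8.14. The cause was not tested. Over all tested genes the median estimate was 0.08 with TMM, -0.15 with DESeq2's size factors, 1.403 with no low-count filter, 0.64 with DESeq2, 1.52 with limma voom and 1.04 with the replicate block. Leaving out the library with most counts of Mrtfa or Dusp4 was added after seeing the data. The summed level, knockout over control, was 0.979 with TMM, 0.828 with DESeq2's size factors, 0.990 on FPKM and 0.811 to 1.04 with a library left out. Same-numbered libraries showed no shared deviation (correlations of -0.02, 0.03 and -0.01 across genes). With 3 libraries per genotype and so wide a spread, this check cannot tell whether the numbers pair them. The replicate block called 0 genes, as did the main fit.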
